A study of Mus musculus with 18 samples.

Results

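The genes described here are 10 transcripts that ERK signalling is known to induce, each of which acts back on that pathway or carries its signal into the nucleus: the phosphatases Dusp4, Dusp5 and Dusp6, the inhibitors Spry1, Spry2, Spry4, Spred1 and Spred2, and the transcription factors Etv4 and Etv5. They were chosen by gene symbol. All 10 had a value among the 18193 genes measured, through 28 probe sets of 45101 on the array, and each gene was read from its probe set with the highest mean over all arrays. RNA was measured on 6 arrays in each of 3 groups of mouse lung tissue.

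Receptor tyrosine kinases such as EGFR, FGFR and MET activate RAS, which drives the kinases RAF, MEK and ERK. Active ERK raises the transcription of its own inhibitors: dual-specificity phosphatases that remove phosphate from ERK, and the Sprouty and Spred proteins, which restrain signalling at the level of RAS and RAF. Etv4 and Etv5 are ETS-family transcription factors of the PEA3 group. In the lung they act downstream of FGF signalling, and Etv5 is also known as a gene of alveolar type 2 cells, the surfactant-producing epithelium from which many mouse lung adenomas and carcinomas are thought to arise.

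The animals were B6C3F1/N mice, 5 to 6 weeks old when the inhalation study began. Both sexes inhaled cobalt metal aerosol at 3 concentrations (1.25, 2.5 and 5 mg/m3) or none, for 6 hours a day on 5 days a week for up to 105 weeks. The control lung group was lung of vehicle controls, the spontaneous tumour group was lung tumours labelled spontaneous, and the cobalt tumour group was lung tumours labelled as cobalt treated. No label used here gives the concentration, the sex or the age at sampling behind an array. Tumours had been cut out of the surrounding lung, whereas the controls are labelled only as lung, a tissue of many cell types. Whether each array stands for an animal of its own is not stated, so a p-value here reflects the spread between the samples measured, part of which may be technical. Sex-linked RNA, given below, differed within each tumour group, so neither tumour group came from a single animal. Among the controls the spread may be technical only.

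Median log2 levels of the 18 arrays were close, from 6.32 to 6.45. The pan-epithelial marker Epcam was 2.22 higher in spontaneous tumours and 2.34 higher in cobalt tumours than in control lung on the log2 scale (adjusted p = 3.17e-06 and 1.93e-06), and all 13 endothelial markers were lower in both. Of 11 alveolar type 1 markers 9 fell in each tumour group. Of 10 smooth muscle and pericyte markers 9 fell and 1 rose in each. Of 10 club and ciliated markers 9 fell in spontaneous and 10 in cobalt tumours. Macrophage markers rose for 4 of 9 in spontaneous tumours, and 1 rose and 2 fell in cobalt tumours. Some arrays stood apart. Cobalt tumour 6 had a mean correlation over all genes of 0.969 with the control arrays against 0.945 with the other cobalt tumours, and its endothelial markers were 1.11 below the control mean, where the other cobalt tumours were 2.70 to 4.05 below it. Spontaneous tumours 2 and 6 had the lowest mean correlations with their own group (0.948 and 0.949). Xist, the RNA of the inactive X chromosome, was at 12.15 to 12.72 in every control but under 7 in spontaneous tumours 1, 2, 3 and 5 and cobalt tumours 1 and 4, while Y-linked RNA was high in those 6 arrays. The free-text description of control lung 6 names a spontaneous tumour, against its title, source and group label. It was treated as a control here, and its mean correlation was 0.989 with the other controls against 0.920 with the spontaneous tumours.

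Of the 10 genes, 6 rose in both tumour groups, Dusp6 and Etv5 passed the test in cobalt tumours, Spry1 and Spry4 passed in neither, and none fell. In spontaneous tumours 6 of the 10 rose at an adjusted p under 0.05 (Dusp4, Dusp5, Spry2, Spred1, Spred2 and Etv4). Of all genes tested, 34.6% were called there in either direction, 16.4% higher and 18.2% lower. In cobalt tumours 8 rose, the same 6 with Dusp6 and Etv5, where 34.0% of all genes were called, 14.7% higher and 19.3% lower. All 6 tumours of the spontaneous group lay above all 6 controls for each of the 6 genes called there, a separation seen upward in 9.21% of all genes. In cobalt tumours 7 genes separated in this way, against 8.10% of all genes. The median log2 difference over the 10 was 0.80 in spontaneous and 1.22 in cobalt tumours, and that of all genes was -0.03 in both. The 2 comparisons share their control arrays, so they are not independent of each other. These are bulk measurements, in which a higher share of cells carrying a transcript and more of it per cell cannot be told apart.

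**Figure D1:**
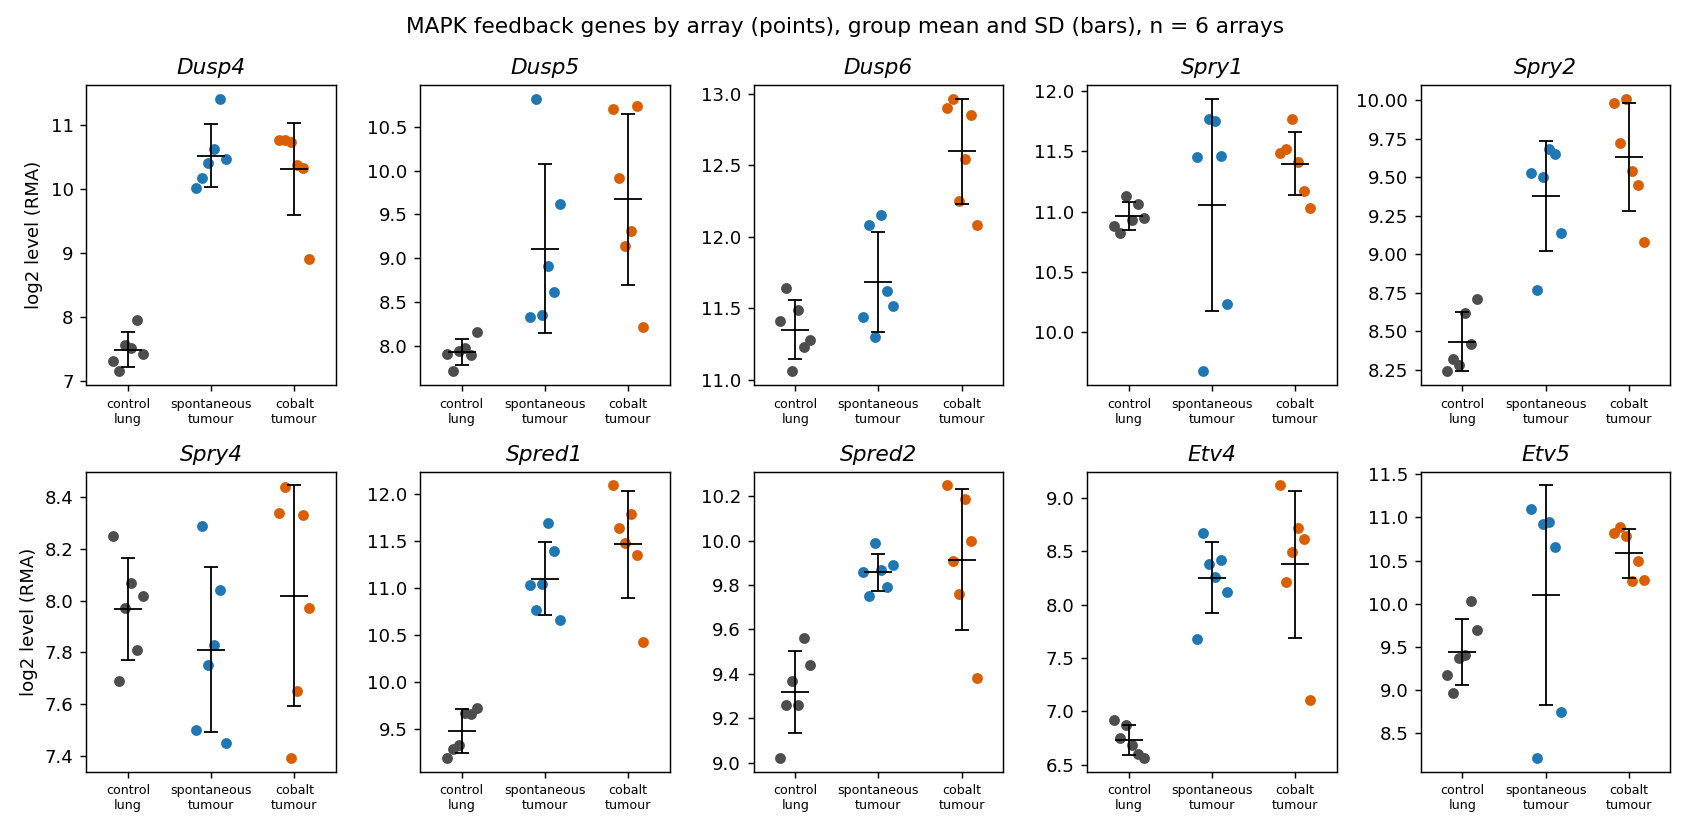
Deposited log2 RMA level of each of the 10 genes (vertical axes) on every array of the 3 groups, with points for arrays and bars for the group mean and SD (n = 6 each). Dusp4, Dusp5, Spred1, Spry2 and Etv4 lie wholly above the controls in both tumour groups, and Spry1 and Etv5 split into a high and a low set among the spontaneous tumours.

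Promoter sequences are shown for the 4 members in which a search found a motif of the ETS or serum response factor type, through which ERK is known to act on transcription. RefSeq promoters of build GRCm38.p6 were held for 7 of the 10 genes, and those of Dusp4, Spry4 and Etv4 are named only. In the 250 bases before the start, both strands were searched for the ETS core CGGAAG, the AP-1 site TGANTCA, the cyclic AMP response element TGACGTCA and the CArG box, the binding element of serum response factor. The 4 sequences run 5′ to 3′ on the plus strand, on which all 4 genes lie, and end at the base before the start. Capitals mark the motif, which is the ETS core or its reverse complement in Dusp6, Spred1 and Spred2 and a pair of adjoining CArG boxes in Dusp5.
Dusp5, chr19:53528895-53529144: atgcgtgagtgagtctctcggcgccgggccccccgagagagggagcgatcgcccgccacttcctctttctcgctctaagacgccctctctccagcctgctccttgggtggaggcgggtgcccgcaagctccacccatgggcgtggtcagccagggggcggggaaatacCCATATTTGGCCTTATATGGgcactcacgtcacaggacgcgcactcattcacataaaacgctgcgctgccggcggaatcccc
Dusp6, chr10:99262981-99263230: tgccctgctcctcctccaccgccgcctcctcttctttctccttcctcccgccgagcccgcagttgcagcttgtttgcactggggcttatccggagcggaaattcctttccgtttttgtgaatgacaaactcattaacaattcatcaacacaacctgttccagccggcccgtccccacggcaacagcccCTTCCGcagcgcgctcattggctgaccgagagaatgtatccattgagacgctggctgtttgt
Spred1, chr2:117120821-117121070: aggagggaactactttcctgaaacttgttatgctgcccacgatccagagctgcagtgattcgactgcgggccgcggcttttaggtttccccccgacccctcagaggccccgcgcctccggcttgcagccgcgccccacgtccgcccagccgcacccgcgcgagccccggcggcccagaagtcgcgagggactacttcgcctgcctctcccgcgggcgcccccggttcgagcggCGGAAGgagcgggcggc
Spred2, chr11:19924192-19924441: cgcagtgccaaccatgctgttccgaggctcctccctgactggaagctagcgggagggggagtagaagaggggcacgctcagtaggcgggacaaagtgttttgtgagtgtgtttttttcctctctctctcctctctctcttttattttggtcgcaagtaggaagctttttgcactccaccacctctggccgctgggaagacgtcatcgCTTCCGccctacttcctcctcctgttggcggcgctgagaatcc
The ETS core began 62 bases before the start in Dusp6, 17 in Spred1 and 43 in Spred2, and stood in 13.6% of all 32851 promoters searched over the same length. The CArG boxes of Dusp5 began 82 and 72 bases before its start, and 1.47% of promoters held such a box. The AP-1 site, held by 6.75% of promoters, and the cyclic AMP element, held by 1.55%, were in none of the members' windows. A match describes letters in a window and was not tested as a binding site. None of the 4 motifs was found in the windows of Spry1, Spry2 and Etv5, of which Spry2 rose in both tumour groups and Etv5 in cobalt tumours.

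Among the phosphatases, Dusp4, a nuclear phosphatase of ERK and other MAP kinases, differed most. Its log2 level was 7.15 at the lowest, 7.46 at the median and 7.96 at the highest in control lung, against 10.02, 10.44 and 11.41 in spontaneous tumours and 8.91, 10.56 and 10.77 in cobalt tumours. Every tumour lay above every control, and cobalt tumour 6 lay well below the other 5 cobalt tumours, which ranged from 10.33 upward. In spontaneous tumours Dusp4 was 8.18-fold higher than in control lung (log2 difference 3.03, SE 0.28, adjusted p = 6.77e-07). In cobalt tumours it was 7.09-fold higher (2.83, SE 0.28, adjusted p = 1.49e-06), and the log2 difference was 3.11 without cobalt tumour 6.

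Dusp5 is a nuclear phosphatase with a strong preference for ERK. Its log2 levels ran from 7.71 through a median of 7.93 to 8.16 in control lung, from 8.33 through 8.77 to 10.82 in spontaneous tumours and from 8.22 through 9.61 to 10.74 in cobalt tumours. The controls were tight (SD 0.15) and both tumour groups were wide (SD 0.97 and 0.98), with the lowest tumours just above the highest control. Dusp5 was 3.33-fold higher in cobalt tumours (log2 difference 1.74, SE 0.43, adjusted p = 0.00437). In spontaneous tumours it was 2.26-fold higher (1.18, SE 0.43, adjusted p = 0.0427). That call was narrow. Without spontaneous tumour 2, at 10.82, the log2 difference was 0.83 (adjusted p = 0.0937). The call was lost in 10 of the 18 fits that left out 1 array. These were each of the 6 that left out a control and those without spontaneous tumour 2, 4 or 6 or cobalt tumour 2.

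Dusp6, a cytoplasmic ERK phosphatase and a common readout of ERK activity, rose in cobalt tumours. Control lung lay between 11.06 and 11.64 with a median of 11.35, spontaneous tumours between 11.30 and 12.15 with a median of 11.57, and cobalt tumours between 12.08 and 12.96 with a median of 12.70. All cobalt tumours exceeded all controls, whereas 4 of the 6 spontaneous tumours fell within the control range. The rise in cobalt tumours was 2.37-fold (log2 difference 1.24, SE 0.18, adjusted p = 3.75e-05). In spontaneous tumours the log2 difference of 0.33 (SE 0.18, 95% interval -0.03 to 0.70) did not pass the test (adjusted p = 0.154).

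Of the Sprouty genes, Spry2 passed the test in both tumour groups and Spry1 and Spry4 in neither. Spry2, an inhibitor of receptor tyrosine kinase signalling that is itself induced by it, had log2 levels of 8.24, 8.37 and 8.71 (lowest, median and highest) in control lung, 8.77, 9.52 and 9.68 in spontaneous tumours and 9.08, 9.63 and 10.01 in cobalt tumours. No tumour overlapped the controls, and the lowest in each group were spontaneous tumour 2 and cobalt tumour 6. Spry2 rose 1.93-fold in spontaneous tumours (log2 difference 0.95, SE 0.17, adjusted p = 0.000336) and 2.29-fold in cobalt tumours (1.20, SE 0.17, adjusted p = 4.05e-05). A second Spry2 probe set, with a mean of 5.63, differed by -0.06 and 0.24 and was not called in either.

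Spry1, another Sprouty inhibitor, was not called in either tumour group in the fit over all 18 arrays. Its log2 level ran from 10.82 to 11.13 in control lung with a median of 10.94, from 9.67 to 11.77 in spontaneous tumours with a median of 11.46, and from 11.03 to 11.77 in cobalt tumours with a median of 11.45. Spontaneous tumours 1, 3, 4 and 5 were above every control and tumours 2 and 6 were below every control, at 9.67 and 10.23. The log2 difference was 0.09 in spontaneous tumours (SE 0.29, adjusted p = 0.834) and 0.43 in cobalt tumours (SE 0.29, adjusted p = 0.278). Left without spontaneous tumours 2 and 6, the fit gave 0.65 for spontaneous and 0.43 for cobalt tumours. Those tumours had the lowest Spry1 levels of all arrays. Leaving them out raised the spontaneous difference and narrowed the shared spread by construction, so that fit is no test of either group. With only the 12 control and cobalt arrays fitted, Spry1 was called higher in cobalt tumours (0.43, SE 0.12, adjusted p = 0.0106).

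Spry4 did not pass the test in either group. Its log2 levels were 7.69 to 8.25 in control lung, 7.45 to 8.29 in spontaneous tumours and 7.39 to 8.44 in cobalt tumours, so the 3 groups overlapped throughout. The difference from control lung was -0.16 in spontaneous tumours (95% interval -0.54 to 0.22, adjusted p = 0.525) and 0.05 in cobalt tumours (-0.33 to 0.43, adjusted p = 0.866). Of its 4 probe sets, 1 was called, a dimmer one with a mean over all arrays of 6.88 that was 0.83 higher in cobalt tumours (adjusted p over all probe sets = 0.00903).

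Spred1 and Spred2, Sprouty-related proteins that bring neurofibromin to the membrane and so restrain RAS, both rose. Spred1 had log2 levels of 9.19, 9.49 and 9.72 (lowest, median and highest) in control lung, 10.66, 11.04 and 11.69 in spontaneous tumours and 10.42, 11.56 and 12.09 in cobalt tumours. The gap between the highest control and the lowest tumour was wide, and cobalt tumour 6 was again the lowest tumour. The rise was 3.07-fold in spontaneous tumours (log2 difference 1.62, SE 0.23, adjusted p = 3.89e-05) and 3.95-fold in cobalt tumours (1.98, SE 0.23, adjusted p = 5.3e-06). Of 8 Spred1 probe sets, 6 were called higher in spontaneous and 7 in cobalt tumours, and none lower.

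Spred2 moved by less. Its log2 levels ran from 9.02 to 9.56 in control lung (median 9.32), from 9.75 to 9.99 in spontaneous tumours (median 9.87) and from 9.38 to 10.25 in cobalt tumours (median 9.96). Spontaneous tumours formed a narrow band above all controls, and 5 of 6 cobalt tumours lay above all controls, with cobalt tumour 6 inside their range. Spred2 was 1.45-fold higher in spontaneous tumours (log2 difference 0.54, SE 0.12, adjusted p = 0.00255) and 1.51-fold higher in cobalt tumours (0.60, SE 0.12, adjusted p = 0.00113). Its probe sets disagreed: 3 of 5 were called higher in both groups, by up to 1.22 and 1.49, and the other two differed by at most 0.09.

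Etv4, a PEA3 factor, had log2 levels of 6.56, 6.72 and 6.92 (lowest, median and highest) in control lung, 7.68, 8.32 and 8.67 in spontaneous tumours and 7.11, 8.56 and 9.12 in cobalt tumours. All tumours were above all controls, and cobalt tumour 6 was the nearest to them. The rise was 2.88-fold in spontaneous tumours (log2 difference 1.53, SE 0.25, adjusted p = 0.00012) and 3.14-fold in cobalt tumours (1.65, SE 0.25, adjusted p = 5.96e-05). Both Etv4 probe sets were called higher in both groups.

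Etv5, its close relative, ran from 8.97 to 10.03 in control lung with a median of 9.38, from 8.21 to 11.10 in spontaneous tumours with a median of 10.79, and from 10.26 to 10.89 in cobalt tumours with a median of 10.64. Spontaneous tumours 2 and 6, at 8.21 and 8.74, lay below every control, and the other 4, at 10.66 to 11.10, lay above every control. In cobalt tumours, where all 6 arrays exceeded all controls, Etv5 was 2.22-fold higher (log2 difference 1.15, SE 0.42, adjusted p = 0.0444). That call was narrow in the fit over all arrays. The 3 Etv5 probe sets differed by 0.96 to 1.15 with 1 of them called. Leaving out any 1 of controls 1, 2, 3, 4 or 6 or of cobalt tumours 1 to 5 ended the call. The adjusted p then ran up to 0.0905. The SD was 1.27 in spontaneous tumours, against 0.38 in control lung and 0.28 in cobalt tumours. With only the 12 control and cobalt arrays fitted, Etv5 was called higher in cobalt tumours (1.15, SE 0.18, adjusted p = 0.000354). In spontaneous tumours the log2 difference of 0.66 (SE 0.42, adjusted p = 0.25) was not called with all arrays. It was 1.03 without tumour 2 and 1.47 without tumours 2 and 6. These tumours had the lowest Etv5 levels of all arrays. Leaving them out raised the difference by construction and is no test of the group.

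**Figure D2:**
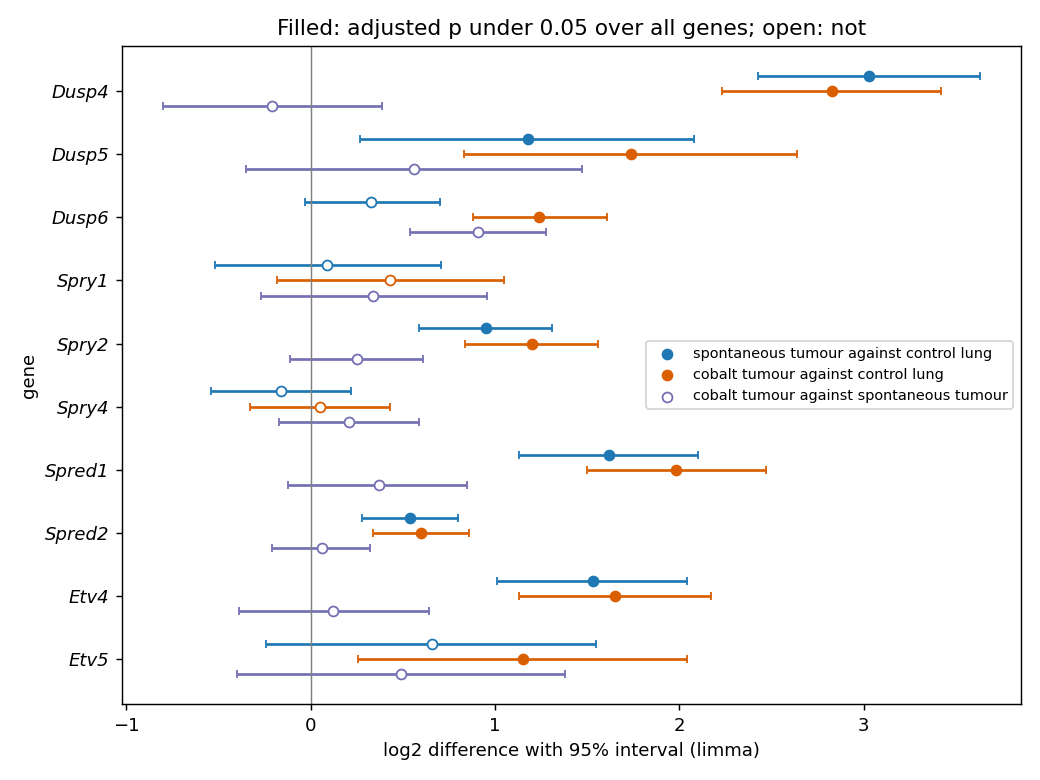
Log2 difference for each of the 10 genes in 3 comparisons: spontaneous tumours and cobalt tumours against control lung, and cobalt against spontaneous tumours. Bars show the 95% interval of the fit over 18 arrays, and points are filled where the adjusted p was under 0.05. Against control lung, Dusp4 is farthest from 0 in both tumour groups, at 3.03 and 2.83, and the intervals of Spry1 and Spry4 span 0 in both.

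The spontaneous tumours in which Spry1 and Etv5 were low were also those with low alveolar type 2 markers. Of 10 other type 2 markers, 5 rose in spontaneous and 7 in cobalt tumours and none fell, or 2 and 6 with cyclic loess normalization. The mean of these 10 markers, set against the control mean, was 0.83 to 1.11 higher on the log2 scale in spontaneous tumours 1, 3, 4 and 5 but -0.18 and -0.37 in tumours 2 and 6, the same arrays in which Spry1 and Etv5 were low. In cobalt tumours it was 0.72 to 0.85 in all 6. Pan-epithelial markers were high in the same 2 tumours, at 2.18 in tumour 2 and 1.76 in tumour 6 against 0.83 to 1.44 in the rest of the group. What part the type 2 content had in the levels of the 10 genes was not tested.

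**Figure D3:**
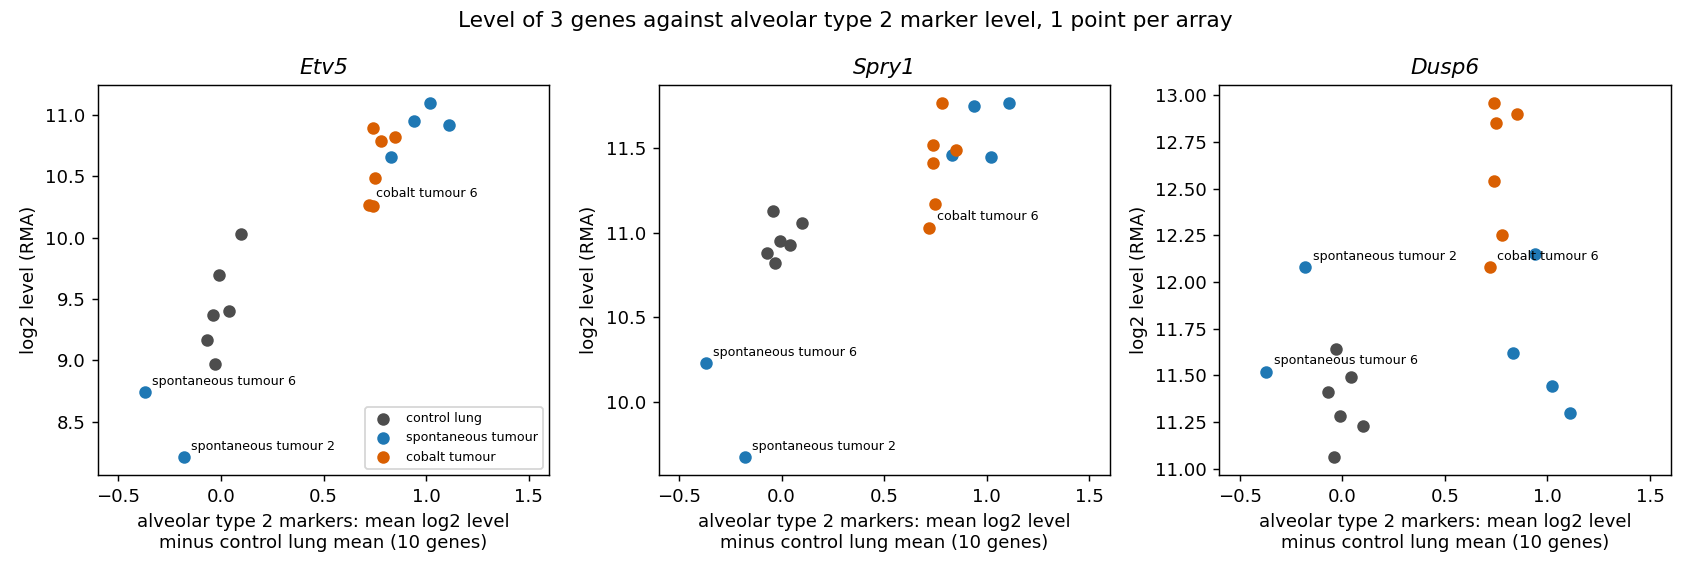
Log2 level of Etv5, Spry1 and Dusp6 (vertical axes) against the mean of 10 alveolar type 2 markers relative to the control mean (horizontal axis, log2), 1 point per array. Spontaneous tumours 2 and 6 lie at -0.18 and -0.37 on the horizontal axis and hold the lowest Spry1 and Etv5 levels of all arrays.

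Between the tumour groups, no member passed the test, where 0.0824% of all genes did, 0.044% higher and 0.0385% lower in cobalt tumours (8 and 7 genes). At an unadjusted p under 0.05, 1 of the 10 was higher in cobalt tumours, against 4.33% of all genes. That gene was Dusp6, which was 1.88-fold higher in cobalt than in spontaneous tumours (log2 difference 0.91, SE 0.18, 95% interval 0.54 to 1.28, unadjusted p = 6.98e-05, adjusted p = 0.0552). In 5 of the 6 cobalt tumours Dusp6 exceeded every spontaneous tumour, and the exception, cobalt tumour 6, stood at 12.08 against 12.15 and 12.08 in the highest spontaneous tumours. Without cobalt tumour 6 the log2 difference was 1.01 (adjusted p = 0.0207), without spontaneous tumour 2 it was 0.99 (adjusted p = 0.0463) and without spontaneous tumour 4 it was 1.00 (adjusted p = 0.0266). Each of these fits left out an array near the other group, which widens the difference by construction. The other 15 of the 18 fits that left out 1 array did not call it, among them 0.83 without spontaneous tumour 3 (adjusted p = 0.107). With only the 12 tumour arrays fitted the difference was again 0.91 (SE 0.2, adjusted p = 0.345), where 0.0055% of all genes were called. Among arrays with Xist above 10 the difference was 0.70 (SE 0.26, adjusted p = 0.699), where 0.0% of all genes were called.

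For each of the other 9 members the interval of the difference spanned 0. Dusp5 was 0.56 higher in cobalt tumours with a 95% interval of -0.35 to 1.47, and Etv5 0.49 higher with an interval of -0.40 to 1.38. The interval for Dusp4 ran from -0.80 to 0.39, and for Spred2, the narrowest, from -0.21 to 0.32. The point estimate was above 0 for 9 of the 10, with a median of 0.30. Sex was not balanced between the groups. Among arrays with Xist above 10, 2 were spontaneous and 4 were cobalt tumours. In these arrays 5 members were called higher in spontaneous and 8 in cobalt tumours than in control lung. Of all genes, 23.7% and 27.8% were called there in either direction. Between the tumour groups no member was called, nor was any of the 18193 genes.

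Some single tumours were low or high for many of the 10 genes at once. Cobalt tumour 6, the array closest to control lung, was below its group mean for 10 of the 10 genes, by a median of 0.54 on the log2 scale, and held the lowest value of its group for 8. Its pan-epithelial markers were 0.61 above the control mean, against 1.36 to 2.06 in the other cobalt tumours. Cobalt tumour 1 was above its group mean for all 10, and its endothelial markers were the lowest of any array, at -4.05. Without cobalt tumour 6 the same 8 genes were called in cobalt tumours, with log2 differences of 2.03 for Dusp5, 1.35 for Dusp6, 2.19 for Spred1 and 1.90 for Etv4. The share of all genes below or above the group mean on these arrays was not computed, so the counts cannot be read as particular to the 10 genes. The part of non-tumour tissue in these deviations was not tested.

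**Figure D4:**
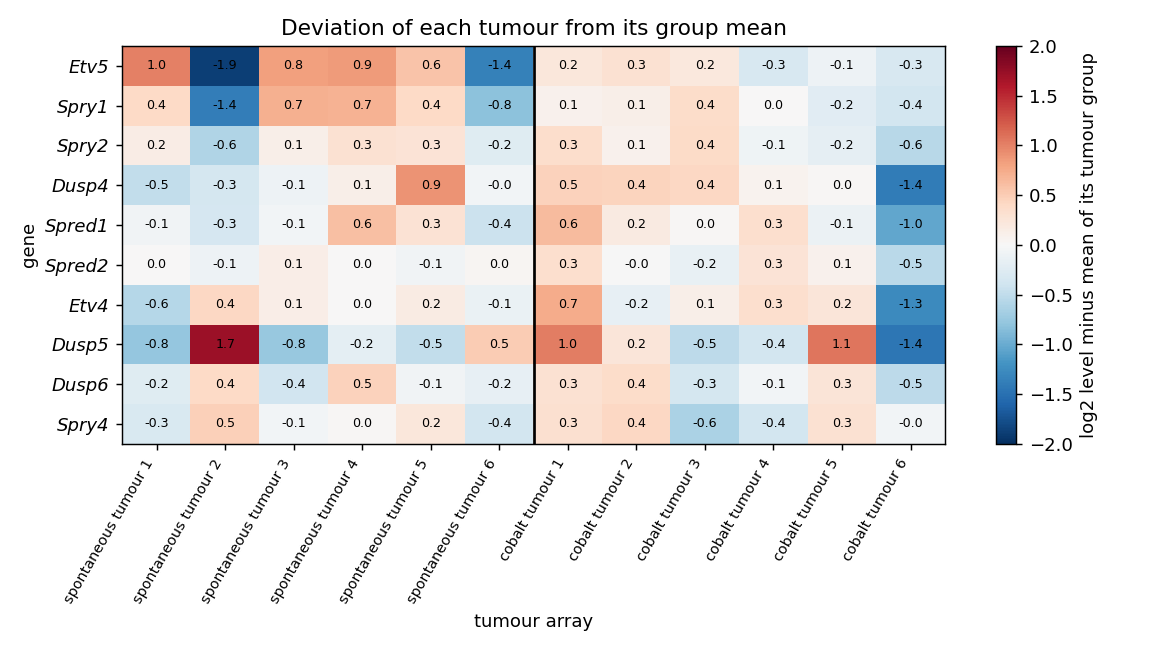
Deviation of each of the 10 genes from its tumour group's mean (log2, colour scale) on the 12 tumour arrays. Cobalt tumour 6 is below its group mean for all 10 genes, and spontaneous tumours 2 and 6 are low for Spry1 and Etv5.

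After the group means were subtracted, the 10 genes varied with each other to different degrees over the 12 tumours. The Pearson correlation over 45 pairs had a median of 0.41 and ran from -0.60 to 0.96, and 18 pairs exceeded 0.5. Spry1 and Etv5 were the closest pair (r = 0.96, Spearman rho = 0.91), with r = 0.59 once spontaneous tumours 2 and 6 were left out. Dusp5 and Dusp6 had r = 0.76 and kept 0.67 without cobalt tumour 6 and 0.82 without those spontaneous tumours. Dusp4 and Spred1 had r = 0.79, which was 0.50 without cobalt tumour 6. The lowest correlation was that of Dusp5 with Spry1, at -0.60, and it was -0.83 without cobalt tumour 6 and 0.17 without spontaneous tumours 2 and 6. These arrays share their normalization and differ in tissue content, and the values are given as description.

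With the dimmest 6064 genes set aside, each member was compared with 12128 other genes, and the 2 closest to each called member over the same 12 arrays were found. For Dusp4 they were Dguok and Alkbh6 (r = 0.96 for both), for Dusp5 Tarbp2 and Det1 (0.93), and for Dusp6 Hspa8 (0.87) and Pomgnt1 (0.86). For Spry2 they were Gstt2 and AW209491 (0.95). Spred1 was closest to Rtkn (0.96) and Fat2 (0.93), and Spred2 to Ankrd2 (0.95) and Osbpl7 (0.92). Etv4 was closest to Samd10 and Wdr18 (0.95). Etv5 was closest to Lgi3 (0.98, and 0.76 without spontaneous tumours 2 and 6), then to Spry1. A maximum over so many genes and 12 arrays is high by construction.

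Other dual-specificity phosphatases of MAP kinases were mostly lower or not called. Of 11 measured, none rose and 5 fell in spontaneous tumours (median log2 difference -0.28), and 1 rose and 5 fell in cobalt tumours (median -0.58). Dusp14 fell by 2.06 on the log2 scale in spontaneous tumours and by 2.59 in cobalt tumours (adjusted p = 0.00118 and 0.000164). Dusp1, an immediate-early phosphatase that acts mainly on p38 and JNK, had a log2 level of 12.55 ± 0.19 (SD, n = 6) in control lung, 10.78 ± 0.29 in spontaneous and 11.12 ± 0.45 in cobalt tumours (adjusted p = 1.59e-06 and 1.28e-05), and no tumour overlapped the controls. The 3 others that fell in both groups, Dusp3, Dusp7 and Dusp8, differed by -0.85 to -1.20 and are named here after their values were seen. Dusp16, a phosphatase of JNK and p38, was 0.64 higher in cobalt tumours (adjusted p = 0.0221).

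Other inhibitors of receptor and RAS signalling moved both ways: of 19, 3 rose and 6 fell in spontaneous tumours, and 4 rose and 4 fell in cobalt tumours, with medians of -0.04 and -0.02. Spred3, another Spred gene, was 1.14 higher in spontaneous tumours (adjusted p = 0.0114), and Errfi1, an inhibitor of EGFR, was 0.99 higher in cobalt tumours (adjusted p = 0.000574). Socs3, a cytokine signalling inhibitor, rose in both (0.99 and 0.89). Rasal2, a RAS GTPase-activating protein, and Il17rd, an FGF signalling inhibitor known as Sef, fell in both (-1.90 and -2.25 for Rasal2, -1.70 and -1.65 for Il17rd).

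Of 16 other ETS factors, 4 rose and 5 fell in spontaneous and 6 rose and 5 fell in cobalt tumours. Those that rose most were the epithelial factors Ehf (2.49 and 1.88) and Elf5 (1.94 and 2.55), and those that fell most were Erg, an endothelial factor, (-2.45 and -2.38) and Ets1 (-1.41 and -1.46). Beside them, 7 of 9 pan-epithelial markers rose in both groups, and Pecam1, an endothelial adhesion molecule, fell by 3.08 in spontaneous and by 3.00 in cobalt tumours.

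Upstream, the ERK cascade itself showed no common direction: of 17 core genes, 3 rose and 4 fell in spontaneous, and 3 rose and 5 fell in cobalt tumours. The adaptor Shc1 rose (1.07 and 1.23) and the RAS-related GTPases Mras and Rras fell (-1.07 and -0.94, -0.95 and -1.32). Of 18 receptors, 4 rose and 8 fell in each group: Met, the hepatocyte growth factor receptor, was 1.90 and 2.03 higher and Erbb3 1.07 higher in spontaneous tumours, Fgfr2 was 1.58 higher in cobalt tumours, and Kit (-3.16 and -3.21) and Pdgfra (-3.08 and -2.80) fell. Of 21 ligands, 4 rose and 9 fell in spontaneous and 3 rose and 9 fell in cobalt tumours. Ereg, which encodes the EGFR ligand epiregulin, rose from a log2 level of 4.87 ± 0.18 (SD, n = 6) in control lung to 8.33 ± 1.98 in spontaneous tumours and 9.72 ± 1.79 in cobalt tumours (adjusted p = 0.00347 and 0.000213). Kitl and Fgf7 fell in both (-2.82 and -3.30, -2.45 and -2.07).

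Downstream, of 22 other transcripts known to be induced by ERK, 7 rose, none fell and 15 were not called in spontaneous tumours (median 0.55), where 16.4% of all genes rose. In cobalt tumours 12 rose, none fell and 10 were not called (median 0.73), where 14.7% of all genes rose. With cyclic loess normalization 1 fell in each, with 6 and 9 that rose. The immediate-early gene Dusp1, which fell in both groups, was counted with the phosphatases and not here. Myc rose by 1.71 in both groups, Epha4 by 1.54 in spontaneous tumours and Egr1, an immediate-early factor, by 1.62 in cobalt tumours (adjusted p = 0.0449). Kinases of the p38 and JNK branches fell more often than they rose, 4 against 1 of 10 in spontaneous and 5 against 2 in cobalt tumours. All genes did so too, with 18.2% lower and 16.4% higher in spontaneous and 19.3% lower and 14.7% higher in cobalt tumours. Between the tumour groups, none of the 134 genes in these 8 lists passed the limma test, where 0.0824% of all genes did. Of the 134, 14 had an unadjusted p under 0.05. Proliferation markers rose for 9 of 9 in spontaneous but 2 of 9 in cobalt tumours. Between the groups none of the 9 passed, with an unadjusted p under 0.05 for 7. Their median log2 difference, cobalt minus spontaneous, was -1.19. At that unadjusted level 4.33% of all genes were higher in cobalt tumours, which is the direction opposite to this median. The share lower, or in both directions together, was not computed. The counts of 14 and 7 thus have no full background, and no result is drawn from them.

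**Figure D5:**
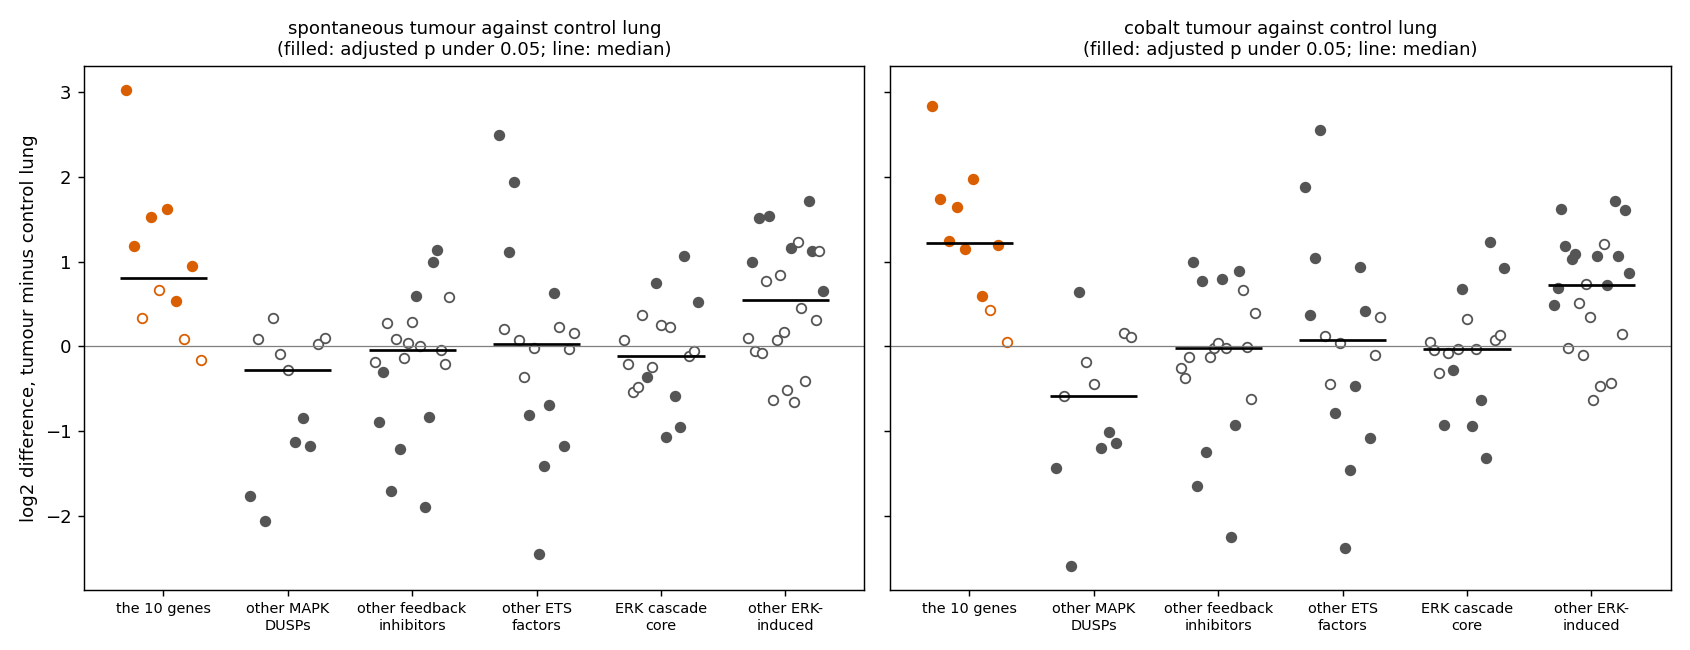
Log2 difference from control lung for each gene of the pathway lists in the 2 tumour groups, 1 point per gene, filled where the adjusted p was under 0.05, with a line at the list's median. The 10 described genes have medians of 0.80 and 1.22, and the other dual-specificity phosphatases have medians of -0.28 and -0.58.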

How the data were processed

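For 18 arrays of 1 colour (100 ng of RNA each) the authors deposited log2 values, for which the submitters' processing notes name RMA. RMA usually makes array distributions alike, which can hide a shift common to all genes, and can compress differences of dim probe sets. No source used here names its version or settings, and detection calls were not used. Values ran from 3.34 to 15.26 and were used as deposited.

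Of 45101 probe sets, the platform annotation gave a single gene symbol for 34945, which were used, several for 932 and none for 9160, and 64 were controls. Of those used, 34741 matched mouse RefSeq by Entrez identifier and 0 symbols changed. A gene took its probe set with the highest mean, which gave 18193 genes, 9010 of them with several.

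All 18 arrays were fitted together in limma 3.58.1 (R 4.3.3, lmFit and eBayes, group as the only term), two-sided, with Benjamini-Hochberg adjustment over 18193 genes at 0.05. Intervals are 95% and cover the spread between arrays, whose number limits the precision. Groups came from titles, sources and group labels. The fit was tested on simulated data. ORIOGEN, the permutation software named in the series' design text for the tumour against control comparisons, was not used here. Alternatives changed normalization, filter, probe set rule, eBayes options, array weights, arrays fitted, replicate block, sex-linked RNA and each array left out.

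The members and lists were chosen with earlier results of these data known. From each list, up to 2 genes that rose and 2 that fell most per comparison were named, with the first marker of a cell type and the 2 genes closest to each called member. Not analysed here were 14 list genes.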

Additional observations from a re-analysis of the deposited data

Results flagged for a closer look

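Dusp4 in cobalt tumour 6 had a log2 level of 8.91, while the other 5 cobalt tumours lay between 10.33 and 10.77. The gap to the nearest array exceeded the 95% limit of Dixon's test for 6 values. In all, 30 groups (10 genes in 3 groups) were looked at in this way, and chance alone marks about 1 in 20.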

How the results depend on the processing

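Dusp4, Spry2, Spred1 and Etv4 were called higher in all 29 alternatives of both tumour comparisons with control lung, and Dusp5, Dusp6 and Spred2 in all 29 for cobalt tumours. Spred2 in spontaneous tumours missed once, with Y-linked RNA as a covariate (0.39, adjusted p = 0.0511). Dusp5 in spontaneous tumours was called in 14 of 29 (adjusted p 0.0227 to 0.227) and Etv5 in cobalt tumours in 16 of 29. Dusp6 between the tumour groups was called in 6 of 29 (0.70 to 1.01, adjusted p 0.0207 to 0.699). Leaving out 1 array gave 5 to 6 members called in spontaneous tumours, 7 to 8 in cobalt tumours and 0 to 1 between them. The count between tumour groups was 1 instead of 0 without the 6064 dimmest genes, with array weights and without spontaneous tumours 2 and 6 together. Same-numbered arrays did not pair (correlations of deviations -0.338 to 0.195, and the own number was the best match in 1 of 36 searches). With a replicate block the members called were 5, 8 and 0, which differs from the fit without it in Dusp5 in spontaneous tumours (adjusted p = 0.0696).

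Signs turned only for differences that were not called. Against control lung, Spry1 in spontaneous tumours was -0.04 with cyclic loess and -0.05 without spontaneous tumour 3 or 4 (-0.05 to 0.37 over single arrays left out). Spry4 in spontaneous tumours was 0.02 as the mean of its probe sets, and Spry4 in cobalt tumours was -0.01 without control 2 or cobalt tumour 5, -0.02 without cobalt tumour 1 and -0.03 without cobalt tumour 2 (-0.03 to 0.18 over single arrays left out). Between tumour groups, Dusp4 was 0.02 with array weights and 0.07 without cobalt tumour 6 (-0.30 to 0.07 over single arrays left out). Spry1 was -0.21 and Etv5 -0.32 without spontaneous tumours 2 and 6. Spred2 was -0.12 and Etv4 -0.08 among arrays with Xist above 10, and -0.01 and -0.02 without cobalt tumour 1 (-0.01 to 0.16 and -0.02 to 0.38 over single arrays left out). The median correlation between members, 0.41, was 0.29 by Spearman, 0.16 without cobalt tumour 6 and 0.54 without spontaneous tumours 2 and 6. The causes were not tested. Signal over background is unknown for the dim probe sets of Spry4 and Spry2.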
